A study of Danio rerio with 24 samples.

Results

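The NR4A receptors are a small family of orphan nuclear receptors, represented in the zebrafish gene table by nr4a1, nr4a2a, nr4a2b and nr4a3. These 4 genes of the 31953 gene IDs counted were selected by symbol, because the family is known to respond to exercise and because nr4a3 was among the largest increases after training in these same libraries. The values that led to the selection are the levels in trained and untrained wild-type muscle, so for all 4 genes that comparison is given as a description with no test. The comparison of transgenic with trained muscle is likewise a description for nr4a3.

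NR4A proteins bind DNA and activate transcription without a known classical ligand, so their activity is thought to follow largely from how much of them is made. In mammals their genes are immediate early genes: transcription starts rapidly after a stimulus such as beta-adrenergic signalling through cAMP and CREB, calcium signalling through calcineurin and MEF2, or contraction, and the transcripts are short-lived. NR4A1 (Nur77), NR4A2 (Nurr1) and NR4A3 (NOR-1) have been linked in mouse muscle to the use of glucose, glycogen and fat.

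Skeletal muscle RNA of zebrafish aged 4 months was sequenced after poly(A) selection. The groups were untrained fish of genotype actc1b:PGC1alpha (untrained_TG), trained wild-type fish (trained_WT) and untrained wild-type fish (untrained_WT), with 7 libraries each. In the transgenic fish the promoter of actc1b, a muscle actin gene, is named as the driver of PGC1alpha, a transcriptional coactivator of mitochondrial genes. No trained transgenic group was analysed here, and the labels do not give the species of PGC1alpha, the number of founder lines or how many fish went into a library. The p-values therefore reflect how these libraries varied, which may be technical. For the training schedule, the time between the last bout and sampling, and the time of day, the sources used here give no value.

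Libraries held 42.8 to 78.1 M counts over genes in untrained_TG, 72.1 to 78.6 M in trained_WT and 71.0 to 79.2 M in untrained_WT. All 21 markers of muscle fibres had counts in every group. Their summed level was 32098 to 40964 CPM (counts relative to a TMM-scaled library size) in untrained_TG, 133603 to 222020 CPM in trained_WT and 69183 to 215733 CPM in untrained_WT. Of these 21 markers, 14 were lower and 2 higher in untrained_TG than in untrained_WT, against 25.1% of all genes lower and 18.3% higher. The marker list includes genes of fast fibres, such as mylpfa, tnnt3a and atp2a1, and was not split by fibre type. In bulk RNA, fewer cells of a type, less RNA per cell and a change of fibre type cannot be told apart. Summed germ cell markers reached 111.7 and 69.2 CPM in untrained_WT replicates 3 and 7 and at most 19.1 CPM in each of the other 19 libraries. Without these 2 libraries, values are also given for nr4a3 in trained_WT and nr4a1 in untrained_TG, each against untrained_WT. Of the 4 members, 3 passed the filter on low counts and nr4a2a did not.

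In trained muscle nr4a3 was far above its level in both untrained groups. It stood at a lowest, median and highest value of 57.8, 135.9 and 182.9 CPM in trained_WT, against 1.38, 2.07 and 8.50 CPM in untrained_WT. Every trained library lay above every untrained wild-type library, and the lowest trained library was above the highest transgenic one as well. The means were 131.1 ± 44.7 CPM in trained_WT and 3.97 ± 2.94 CPM in untrained_WT (SD, n = 7 each), a log2 fold change of 5.05 ± 0.61 (SE) or 33.1-fold. This was rank 4 among the fold changes of 18947 genes tested in that comparison. Groups did not overlap, with the first higher, for 0.992% of all genes. Without untrained_WT replicates 3 and 7 the log2 fold change was 4.74.

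Transgenic muscle did not show the trained level of nr4a3. The gene had a lowest, median and highest value of 0.922, 3.15 and 19.1 CPM in untrained_TG. The value of 19.1 CPM came from untrained_TG replicate 1, which held 1051 counts of the gene, and the next highest transgenic library was at 4.83 CPM. The transgenic values overlapped those of untrained_WT, and 6 of 7 lay above the untrained_WT median. The mean was 5.45 ± 6.15 CPM in untrained_TG and 3.97 ± 2.94 CPM in untrained_WT (SD, n = 7 each). The log2 fold change was 0.46 ± 0.52 (edgeR quasi-likelihood test, adjusted p = 0.50), with a 95% interval of -0.62 to 1.54. Without untrained_TG replicate 1 it was -0.28 (adjusted p = 0.629), so no direction can be read from it. This comparison has its untrained_WT libraries in common with the one used to select the genes. Against trained_WT, untrained_TG was 24.1-fold lower (log2 fold change -4.59 ± 0.59, a description), with no overlap between the groups, as for 11.5% of all genes in that direction.

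**Figure D1:**
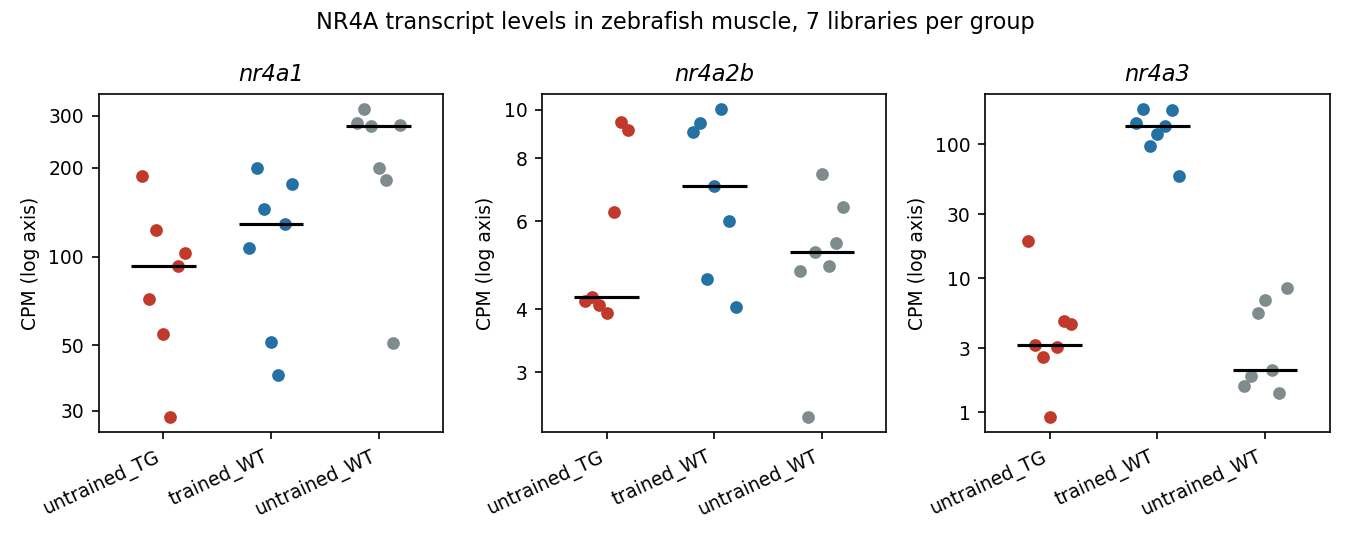
Level of nr4a1, nr4a2b and nr4a3 in each library (points) and the group median (bars), in CPM on log axes, with 7 libraries per group. For nr4a3 the 7 trained_WT libraries sit between 57.8 and 182.9 CPM, above every library of the other groups. For nr4a1, all 7 untrained_TG and all 7 trained_WT libraries sit below the untrained_WT median of 277.3 CPM.

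The gene nr4a1, which encodes the zebrafish counterpart of Nur77, was lower in transgenic than in untrained wild-type muscle. Its lowest, median and highest values were 28.6, 93.0 and 187.1 CPM in untrained_TG, 39.7, 129.0 and 198.9 CPM in trained_WT, and 51.1, 277.3 and 316.8 CPM in untrained_WT. The groups overlapped, and untrained_WT replicate 7 was the lowest of its group at 51.1 CPM. Apart from that library, untrained_WT began at 181.2 CPM, and 6 of 7 transgenic libraries lay below this level. Untrained_TG replicate 1 (187.1 CPM) and trained_WT replicate 2 (198.9 CPM) lay above it. The means were 94.5 ± 51.5 CPM in untrained_TG and 226.9 ± 91.5 CPM in untrained_WT (SD, n = 7 each). The log2 fold change was -1.26 ± 0.41 (2.4-fold lower, 95% interval -2.11 to -0.42, adjusted p = 0.0151 by edgeR's quasi-likelihood test). All 7 transgenic libraries lay below the untrained_WT median, and the share of all genes with this pattern was not counted. In this comparison 43.4% of all genes tested were called and 25.1% were called lower, so 1 called member of the 3 tested is close to the background. Without untrained_WT replicates 3 and 7 the log2 fold change was -1.35 (edgeR adjusted p = 0.00859).

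Summed muscle fibre markers were also lower in untrained_TG, and untrained_WT replicate 7, the untrained_WT library with the least nr4a1, had the lowest summed muscle markers of its group, 69183 CPM. The TMM-scaled size of that library was 142.3 M, for 71.0 M counts over genes. The other untrained_WT libraries were at 66.4 to 102.7 M. Both levels of replicate 7 are divided by this large size. Its raw nr4a1 count, 7273, was also the lowest of the group. Once group means were subtracted, the rank correlation of nr4a1 with the summed muscle markers over 21 libraries was 0.35, and with the summed leukocyte markers -0.57. It was -0.48 with nerve, -0.46 with germ cell, -0.45 with endothelial and -0.10 with red blood cell markers. The part of cell makeup or fibre type in the nr4a1 difference was not tested.

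In trained muscle nr4a1 averaged 121.0 ± 59.7 CPM, against 226.9 ± 91.5 CPM in untrained_WT (SD, n = 7 each), a log2 fold change of -0.91 ± 0.40 given as a description. All 7 trained libraries lay below the untrained_WT median, and the share of all genes with this pattern was not counted. The ranges of nr4a1 overlapped, at 39.7 to 198.9 CPM in trained_WT and 51.1 to 316.8 CPM in untrained_WT. In the same trained libraries nr4a3 was higher than in untrained_WT without overlap, while for nr4a1 only the mean and median were lower. Between untrained_TG and trained_WT, nr4a1 differed by a log2 fold change of -0.36 ± 0.40 (95% interval -1.19 to 0.47, edgeR adjusted p = 0.506), less than the spread between libraries. From low to high the group means ran untrained_TG, trained_WT and untrained_WT, and the lower 2 were not separated beyond their spread.

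The gene nr4a2b, 1 of 2 zebrafish counterparts of Nurr1, was present at a few CPM throughout. Its lowest, median and highest values were 3.94, 4.24 and 9.44 CPM in untrained_TG, 4.04, 7.03 and 10.04 CPM in trained_WT, and 2.44, 5.22 and 7.45 CPM in untrained_WT. The 3 groups overlapped over most of their range. Its log2 fold change was 0.17 ± 0.26 in untrained_TG versus untrained_WT (95% interval -0.38 to 0.72, edgeR adjusted p = 0.629) and -0.28 ± 0.26 in untrained_TG versus trained_WT (95% interval -0.83 to 0.27, edgeR adjusted p = 0.416). Against trained_WT neither nr4a1 nor nr4a2b was called, where 41.6% of all genes were. With library totals in place of TMM scaling, the value of nr4a2b in untrained_TG versus untrained_WT turned to -0.32. As a description, trained_WT averaged 7.17 ± 2.4 CPM and untrained_WT 5.23 ± 1.55 CPM (SD, n = 7 each), a log2 fold change of 0.46 ± 0.26. The tests with untrained_TG share their trained or untrained wild-type libraries with the comparison used to select the genes.

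The remaining counterpart of Nurr1, nr4a2a, was listed at 0 counts in all 21 libraries. A count of 0 allows up to 3 counts, or 0.0211 to 0.0733 CPM depending on the library, for counting error only. It was 1 of 4680 genes with no counts. Reads with more than 1 alignment made up 5.65% to 10.8% of the count table, and whether reads of close paralogs were among them was not tested.

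The balance between nr4a3 and nr4a1 within a library separated trained muscle from both other groups. Counts of nr4a3 as a percentage of nr4a1 counts in the same library had a lowest, median and highest value of 1.69%, 4.41% and 10.7% in untrained_TG, 32.8%, 134% and 343% in trained_WT, and 0.557%, 1.99% and 3.44% in untrained_WT. This ratio does not depend on library scaling, and the range of trained_WT did not overlap that of the other groups. The mean log2 ratio was -4.47 ± 1.02 in untrained_TG, 0.23 ± 1.13 in trained_WT and -6.02 ± 1.11 in untrained_WT (SD, n = 7 each). Since nr4a3 was selected for its trained level, these are descriptions.

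The family was also summed within each library. The sum of the members had a median of 107 CPM (37.9 to 210) in untrained_TG, 247 CPM (178 to 391) in trained_WT and 288 CPM (57.9 to 321) in untrained_WT. The ranges of trained_WT and untrained_WT overlapped, with the trained median the lower but the trained mean the higher. The means were 259 ± 74.5 CPM in trained_WT and 236 ± 91.9 CPM in untrained_WT (SD, n = 7 each), so no direction can be read from the sum. The share of nr4a1 in the sum was 75.4% to 94.9% of the sum in untrained_TG, 21.4% to 74.0% in trained_WT and 88.2% to 98.7% in untrained_WT. These shares are of CPM, which does not correct for the length of the transcripts.

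**Figure D2:**
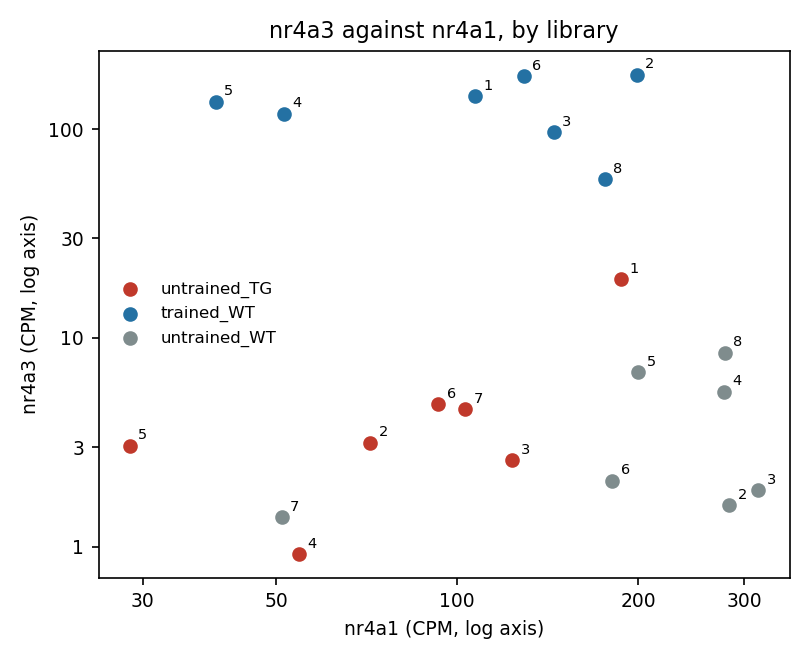
Level of nr4a3 against nr4a1 in each of 21 libraries, in CPM on log axes, labelled by replicate number. The 7 trained_WT libraries form a band at the top, with nr4a3 between 57.8 and 182.9 CPM over nr4a1 levels of 39.7 to 198.9 CPM. Untrained_TG replicate 1 is the transgenic library highest in both genes, at 187.1 CPM of nr4a1 and 19.1 CPM of nr4a3.

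Within groups the members did not vary as 1 unit. After subtracting group means, the rank correlation over 21 libraries was 0.53 between nr4a2b and nr4a3, 0.25 between nr4a1 and nr4a3 and -0.33 between nr4a1 and nr4a2b. For nr4a2b and nr4a3 it was 0.61 in untrained_TG, 0.64 in trained_WT and 0.57 in untrained_WT, over 7 libraries each. The Pearson correlation of this pair in untrained_TG was only 0.17. In the same order of groups, the rank correlation was 0.54, 0.07 and 0.11 for nr4a1 and nr4a3. It was -0.07, -0.43 and -0.54 for nr4a1 and nr4a2b. Libraries share their depth and cell makeup across these genes, so the values describe these libraries only. The replicate spread was above the trend for 2 members. The biological coefficient of variation was 51.4% for nr4a1 and 65.1% for nr4a3, where genes of the same abundance had a trend of 30.8%. It was 35.6% for nr4a2b against a trend of 36.5%. The common value over all genes was 49.5%, near that of nr4a1. By group, the coefficient of variation of nr4a3 CPM was 113% in untrained_TG, 34.1% in trained_WT and 74.1% in untrained_WT.

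Among nuclear receptor genes, the fold change of nr4a3 in trained_WT versus untrained_WT was above those of the 56 other genes tested, given as a description. The next was esrra, the estrogen-related receptor that acts with PGC1 coactivators on oxidative genes, which averaged 46.4 ± 18.5 CPM in trained_WT and 10.5 ± 4.98 CPM in untrained_WT (SD, n = 7 each). It rose by a log2 fold change of 2.14 ± 0.42 (edgeR adjusted p = 0.00568). The fatty acid receptor gene pparaa rose by 1.08 ± 0.25 (edgeR adjusted p = 0.0219) and the thyroid hormone receptor gene thraa by 0.79 ± 0.20 (edgeR adjusted p = 0.0340). With these, 3 of 56 receptor genes were higher and 0 lower in trained_WT by edgeR, against 2.25% of all genes higher and 0.702% lower. At an unadjusted p under 0.05, 2 were lower, and 0 were lower by DESeq2, 1 by limma-voom and without untrained_WT replicate 7, and 3 with library totals. Without trained_WT replicate 5, or with the untrained_TG libraries left out of the fit, 1 of the 3 was called. The call on thraa was also lost without trained_WT replicate 2, 6 or 8 or untrained_WT replicate 2, 3, 4 or 7.

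In transgenic muscle receptor genes were called about as often as genes in general. Relative to untrained_WT, 13 of 56 were higher and 12 lower, where 18.3% of all genes were higher, 25.1% lower and 43.4% called in either direction, with a median log2 fold change of -0.05 where the median of all genes was -0.13. The bile acid receptor relative nr1h5 averaged 13.8 ± 4.30 CPM in untrained_TG and 2.71 ± 0.84 CPM in untrained_WT (log2 fold change 2.35 ± 0.20, edgeR adjusted p = 7.24e-09). The gene nr5a2, encoding liver receptor homolog 1, rose by 2.84 ± 0.29 (edgeR adjusted p = 6.72e-08), at 3.91 ± 1.55 CPM in untrained_TG and 0.54 ± 0.14 CPM in untrained_WT. With library totals in place of TMM scaling, 8 receptor genes were higher and 24 lower. Relative to trained_WT, 14 were higher and 12 lower in untrained_TG, against 19.2% and 22.5% of all genes.

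**Figure D3:**
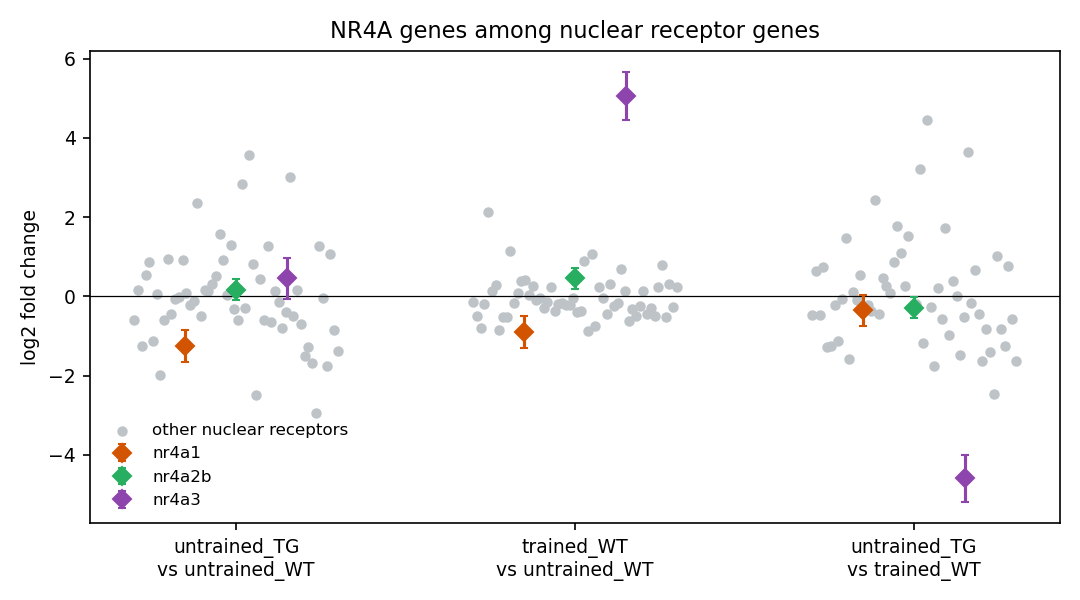
Log2 fold change of nr4a1, nr4a2b and nr4a3 (diamonds, with SE) among 56 other nuclear receptor genes (grey points) in the 3 comparisons. In trained_WT versus untrained_WT nr4a3 lies at 5.05 and the highest other receptor gene, esrra, at 2.14. In untrained_TG versus untrained_WT, nr4a1 lies at -1.26 within the spread of the other receptor genes.

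Retinoid X receptors, the partners with which mammalian NR4A1 and NR4A2, but not NR4A3, form heterodimers, were represented by 6 genes. Of these, 1 rose and 4 fell in untrained_TG relative to untrained_WT, against 18.3% and 25.1% of all genes. The largest drop was in rxrga, at 7.13 ± 2.27 CPM in untrained_TG and 54.8 ± 23.3 CPM in untrained_WT (log2 fold change -2.94 ± 0.28, edgeR adjusted p = 3.07e-08). The genes rxrbb (-1.69 ± 0.17), rxrba (-1.28 ± 0.15) and rxraa (-0.69 ± 0.27) also fell, and rxrgb rose by 1.26 ± 0.27. The call on rxraa was lost in 11 of 30 alternatives, among them leaving out any 1 of untrained_TG replicates 1 to 6 or of untrained_WT replicates 2, 3, 5 and 6. Relative to trained_WT, 1 rose and 3 fell, against 19.2% and 22.5% of all genes. In trained_WT versus untrained_WT 0 of the 6 were called by edgeR or DESeq2. At an unadjusted p under 0.05, 0 were higher and 1 lower, and 1 was called lower by limma-voom, 2 with library totals and 1 without untrained_WT replicate 7. Their log2 fold changes in that comparison ran from -0.48 for rxrga to 0.23 for rxrgb.

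Part of the immediate early programme to which NR4A genes belong in mammals was higher in trained muscle. Of 39 such genes tested, with the NR4A genes left out, 9 were higher and 0 lower in trained_WT than in untrained_WT by edgeR, against 2.25% and 0.702% of all genes. With DESeq2, with limma-voom and at an unadjusted p under 0.05, 0 were lower as well. The list median was 0.68 where that of all genes was -0.07. This is the comparison used to select the NR4A genes, and the list was chosen with earlier results of these data known. The counts are therefore no independent support for the trained level of nr4a3. Of the genes named next, csrnp1a and ctgfa are also among the 5 genes most alike to nr4a3 over all libraries. The gene csrnp1a, which encodes a cysteine- and serine-rich nuclear protein, averaged 84.7 ± 28.8 CPM in trained_WT and 16.6 ± 7.41 CPM in untrained_WT (SD, n = 7 each). It rose by a log2 fold change of 2.35 ± 0.27 (edgeR adjusted p = 2.63e-05). The AP-1 subunit gene junbb rose by 1.97 ± 0.34 (edgeR adjusted p = 0.00209) and ctgfa, encoding the matrix-associated connective tissue growth factor, by 1.5 ± 0.26 (edgeR adjusted p = 0.00173).

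The other 6 called genes were the small Maf genes mafk (2.48 ± 0.49) and maff (0.90 ± 0.16), the stress-responsive factor gene atf3 (1.68 ± 0.42), the MAP kinase phosphatase genes dusp1 (1.06 ± 0.24) and dusp2 (1.51 ± 0.38), and gadd45bb (1.04 ± 0.23). Several classical members were not called in trained_WT: egr1 was at -0.02 ± 0.31, egr3 at 0.02 ± 0.34, fosab at 0.84 ± 0.53 and jun at 0.34 ± 0.29. The 9 higher genes became 16 with DESeq2, 17 with limma-voom, 4 with library totals and 14 without untrained_WT replicate 5. The call on dusp2 was lost in 11 of 30 alternatives and that on atf3 in 10. Both were lost without trained_WT replicate 2 or 6, without untrained_WT replicate 2, 4 or 6, without untrained_WT replicates 3 and 7 together, and with the untrained_TG libraries left out of the fit. That on dusp2 was also lost without trained_WT replicate 5 or untrained_WT replicate 7, and that on atf3 without trained_WT replicate 3 or untrained_WT replicate 3.

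In untrained_TG, 3 immediate early genes were higher and 6 lower than in untrained_WT, against 18.3% and 25.1% of all genes. The serum response factor gene srfb fell by 1.83 ± 0.30 (edgeR adjusted p = 3.23e-05) and the Fra-1 gene fosl1a fell by 2.11 ± 0.47 (edgeR adjusted p = 0.00101), while its paralog fosl1b rose by 1.64 ± 0.37 (edgeR adjusted p = 0.00115). All 3 were at low levels. In untrained_TG and untrained_WT, srfb averaged 0.964 and 3.43 CPM, fosl1a 0.295 and 1.26 CPM, and fosl1b 2.46 and 0.784 CPM. With library totals the counts were 0 and 11, and fosl1b was no longer called. The 3 higher genes became 5 with DESeq2, 8 with limma-voom, 5 with the replicate block and 6 without untrained_WT replicate 5. Relative to trained_WT, 19 of 39 were lower and 2 higher in untrained_TG, with 22.5% and 19.2% of all genes. The 2 became 4 with DESeq2, RLE scaling or only the libraries compared, and 1 with library totals. The genes csrnp1a (-2.83 ± 0.28), mafk (-4.56 ± 0.55) and srfb (-2.21 ± 0.30) had the smallest p-values there. Of these, mafk averaged only 0.109 CPM in untrained_TG and 2.66 CPM in trained_WT, and srfb 0.964 and 4.46 CPM. The levels of csrnp1a were 11.9 and 84.7 CPM.

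Genes of the cAMP and CREB route, known in mammals for switching on NR4A genes, included crema, sik1 and sik2b, which were lower in transgenic and higher in trained muscle than in untrained_WT. Both comparisons use the same untrained_WT libraries. The gene crema encodes the cAMP-responsive element modulator. It averaged 3.45 ± 1.26 CPM in untrained_TG, 33.6 ± 6.62 CPM in trained_WT and 11.6 ± 5.72 CPM in untrained_WT (SD, n = 7 each). It fell by 1.74 ± 0.26 in untrained_TG (edgeR adjusted p = 1.00e-05) and rose by 1.54 ± 0.25 in trained_WT (edgeR adjusted p = 0.00118). Salt-inducible kinases hold CREB coactivators out of the nucleus in mammals. Their gene sik1 averaged 24.4 ± 6.29 CPM in untrained_TG, 237.6 ± 66.8 CPM in trained_WT and 117.3 ± 56.3 CPM in untrained_WT, with log2 fold changes against untrained_WT of -2.27 ± 0.26 (edgeR adjusted p = 4.02e-07) in untrained_TG and 1.02 ± 0.25 (edgeR adjusted p = 0.0300) in trained_WT. The related sik2b followed the same directions, at -0.90 ± 0.17 in untrained_TG (edgeR adjusted p = 0.000140) and 0.73 ± 0.16 in trained_WT (edgeR adjusted p = 0.0160).

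Over the whole cAMP and CREB list of 35 genes tested, 5 were higher and 0 lower in trained_WT by edgeR, against 2.25% and 0.702% of all genes. The list as a whole was not shifted: its median log2 fold change was -0.04, where that of all genes was -0.07, and 17 of 35 were above 0. At an unadjusted p under 0.05, 5 were lower, and by DESeq2 and limma-voom 0. Beside the 3 genes above, the called ones were pde4ca, a phosphodiesterase gene that rose by 1.05 ± 0.24 (edgeR adjusted p = 0.0207), and prkar1aa, a regulatory subunit gene of protein kinase A. In untrained_TG, 4 were higher and 11 lower than in untrained_WT, where 18.3% of all genes were higher, 25.1% lower and 43.4% called in either direction, so the list is close to the background. The phosphodiesterase gene pde4bb fell by 5.89 ± 0.51 (edgeR adjusted p = 6.24e-09) to 0.135 ± 0.0884 CPM, against 7.85 ± 3.89 CPM in untrained_WT. Relative to trained_WT, 6 were higher and 11 lower, against 19.2% and 22.5% of all genes. The 5 genes higher in trained_WT became 1 without untrained_WT replicates 3 and 7, 2 without untrained_WT replicate 3 alone, 3 without trained_WT replicate 4 or 5, 3 with the untrained_TG libraries left out of the fit or with the replicate block, and 2 (with 3 lower) with library totals. The trained_WT call on sik1 was lost in 10 of 30 alternatives, among them leaving out trained_WT replicate 1, 3, 4 or 5 or untrained_WT replicate 2, 3 or 4, and that on prkar1aa in 8, among them without trained_WT replicate 4 or 5 or untrained_WT replicate 3. That on pde4ca was lost without untrained_WT replicate 3. In untrained_TG versus untrained_WT library totals gave 0 higher and 19 lower, and relative to trained_WT 0 higher.

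**Figure D4:**
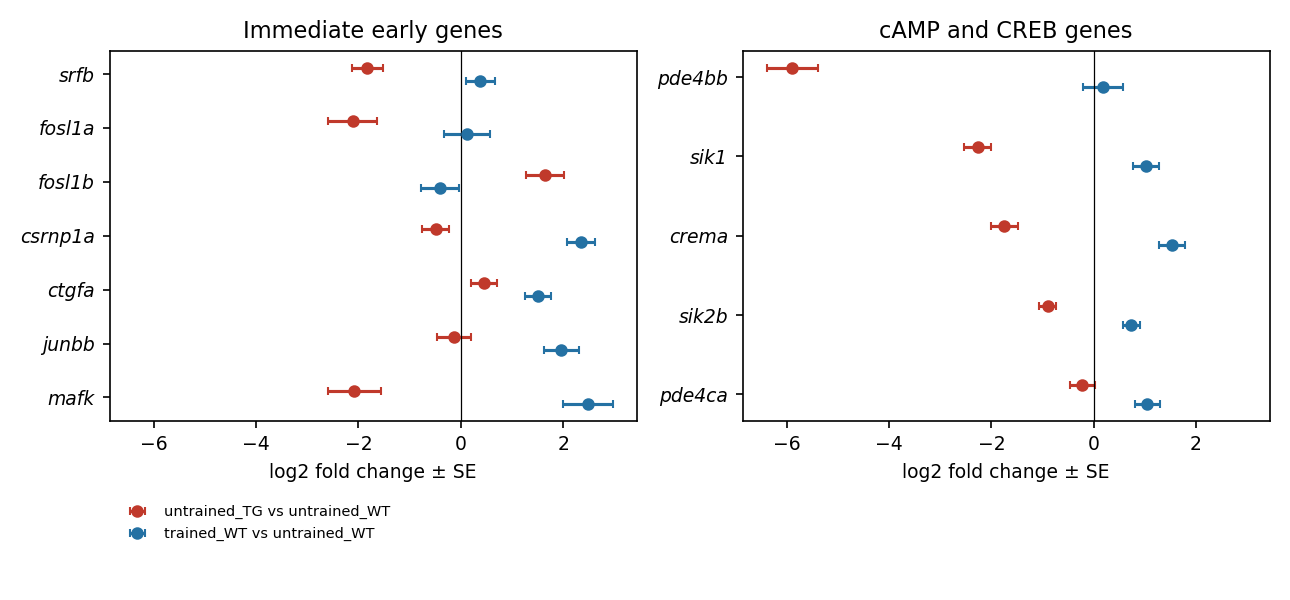
Log2 fold change with SE of the immediate early genes (left) and the cAMP and CREB genes (right) with the smallest p-values, in untrained_TG versus untrained_WT (red) and trained_WT versus untrained_WT (blue). The genes mafk, crema, sik1 and sik2b lie below 0 in untrained_TG and above 0 in trained_WT. The points of csrnp1a, srfb and pde4bb lie on the same sides. The groups share their untrained_WT libraries.

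Calcium-dependent genes, from calmodulin kinases to calcineurin, MEF2 and NFAT, were called about as often as genes in general. Of 34 tested, 3 were higher and 12 lower in untrained_TG than in untrained_WT, where 18.3% of all genes were higher, 25.1% lower and 43.4% called in either direction. The calcineurin subunit genes ppp3cca (-1.53 ± 0.17, edgeR adjusted p = 2.31e-07) and ppp3r1a (-1.71 ± 0.33, edgeR adjusted p = 0.000194) fell. So did mef2aa, encoding a MEF2 factor, at 20.7 ± 3.55 CPM in untrained_TG and 71.8 ± 25.8 CPM in untrained_WT (-1.79 ± 0.22, edgeR adjusted p = 1.17e-06). Relative to trained_WT, 2 were higher and 13 lower, against 19.2% and 22.5% of all genes. Among the lower was rcan1a, a calcineurin regulator and target, which fell by 2.55 ± 0.32 (edgeR adjusted p = 1.44e-06).

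In trained_WT versus untrained_WT, 0 of the 34 calcium-dependent genes were higher by edgeR (5 at an unadjusted p under 0.05) and 1 was lower, against 2.25% and 0.702% of all genes. It was hdac9b, a class II histone deacetylase gene that represses MEF2 in mammals (-1.37 ± 0.33, edgeR adjusted p = 0.0228). That call was lost without trained_WT replicate 8, without untrained_WT replicate 3, without untrained_WT replicate 5 and in 4 other alternatives. DESeq2 and limma-voom each called 2 genes higher, as did the fit without untrained_WT replicate 2, and 1 was called without untrained_WT replicate 5. At the TMM scaling, rcan1a was at 1.11 ± 0.31 (edgeR adjusted p = 0.0526). With library totals, 1 gene was higher and 19 lower in untrained_TG versus untrained_WT. Without the filter on low counts 1 was higher in that comparison, and relative to trained_WT the 2 higher genes became 4 without untrained_TG replicate 2, without untrained_TG replicate 5, with DESeq2 or with RLE scaling, 5 with limma-voom and 1 with the replicate block.

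Zebrafish genes named for mouse genes that have been linked to NR4A receptors in muscle cells were listed next. They cover glycogen and glucose use, fat use, PGC1 coactivators and FOXO1. Of 26 tested, 4 were higher and 13 lower in untrained_TG than in untrained_WT, against 18.3% and 25.1% of all genes, with a median of -0.75 where that of all genes was -0.13. The pyruvate dehydrogenase kinase gene pdk3b fell by 5.10 ± 0.26 (edgeR adjusted p = 3.71e-12) and phka1b, a subunit gene of phosphorylase kinase, by 4.82 ± 0.38 (edgeR adjusted p = 1.52e-09). The gene bpgm, encoding bisphosphoglycerate mutase, rose by 3.33 ± 0.17 (edgeR adjusted p = 4.03e-12). Relative to trained_WT, 6 were higher and 15 lower, against 19.2% and 22.5% of all genes. In the same libraries 14 of 21 muscle fibre markers fell relative to untrained_WT, as did 25.1% of all genes. The part of fibre content or fibre type in these values was not tested.

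In trained_WT, 1 of these 26 genes was higher and 0 lower by edgeR, against 2.25% and 0.702% of all genes, with 1 lower at an unadjusted p under 0.05 and 0 by limma-voom. The higher gene, pdk2b, another pyruvate dehydrogenase kinase, averaged 116 ± 50.1 CPM in untrained_TG, 1903 ± 357 CPM in trained_WT and 367 ± 214 CPM in untrained_WT (SD, n = 7 each). It rose by 2.37 ± 0.36 in trained_WT (edgeR adjusted p = 0.000463) and fell by 1.66 ± 0.35 in untrained_TG (edgeR adjusted p = 0.000512), both relative to untrained_WT. The zebrafish gene ppargc1a was at -0.20 ± 0.42 (edgeR adjusted p = 0.841) and ppargc1b at -0.33 ± 0.24 (edgeR adjusted p = 0.478) in trained_WT versus untrained_WT. In untrained_TG versus untrained_WT ppargc1a was at -0.74 ± 0.43 (edgeR adjusted p = 0.168). Its means were 16.8 ± 8.16 CPM in untrained_TG and 28.1 ± 16.3 CPM in untrained_WT (SD, n = 7 each). Counts at this gene thus showed no rise in the transgenic group, and whether transcripts of the transgene are counted there was not tested. The count of 1 higher became 3 with DESeq2 and 2 without untrained_TG replicate 5 or untrained_WT replicate 8. The count of 0 lower became 1 with DESeq2, with library totals, with the replicate block and without untrained_WT replicate 2.

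The genes whose level followed each member most closely over the 21 libraries were then taken from 14101 genes with at least 50 counts on average. For nr4a3 these were tiparp, encoding an ADP-ribosyltransferase (Spearman rho 0.92), ctgfa (0.91), the syndecan gene sdc4 (0.90), the endothelial lipase gene lipg (0.89) and csrnp1a (0.89). Since nr4a3 was selected for its trained level, a ranking over all libraries favours any gene higher in trained_WT. It is no evidence of a link beyond that group difference. The gene lipg averaged 15.4 ± 25.6 CPM in untrained_TG, 137.7 ± 39.7 CPM in trained_WT and 12.4 ± 13.9 CPM in untrained_WT (SD, n = 7 each). After subtracting group means tiparp again came first, with a rho of 0.85, followed by wbp4 (0.78), mcl1b (0.78), dapk3 (0.77) and ppp1r3aa (0.76). The gene tiparp averaged 14.0 ± 3.97 CPM in untrained_TG, 23.1 ± 5.63 CPM in trained_WT and 14.4 ± 4.67 CPM in untrained_WT.

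For nr4a1 the most alike gene was adrb2b, encoding a beta-adrenergic receptor, with a rho of 0.88 over all libraries and 0.82 after subtracting group means. It averaged 15.5 ± 10.6 CPM in untrained_TG, 14.7 ± 6.36 CPM in trained_WT and 28.4 ± 14.7 CPM in untrained_WT (SD, n = 7 each). Its log2 fold change was -0.87 ± 0.42 in untrained_TG (edgeR adjusted p = 0.0997) and -0.95 ± 0.42 in trained_WT (edgeR adjusted p = 0.214), each against untrained_WT. The next were the deadenylase gene cnot7 (0.84), strn3 (0.84), the mitochondrial carrier gene slc25a25a (0.84) and HTRA2 (0.84). After subtracting group means dyrk4 (0.87), the glycogen-targeting phosphatase subunit gene ppp1r3ca (0.84), the nocturnin gene nocta (0.83) and hsd11b2 (0.82) came before adrb2b.

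For nr4a2b the most alike genes with group means subtracted were st3gal4 (0.86), si:dkeyp-23e4.3 (0.86), the homeobox gene meox1 (0.86), GCA (0.86) and arhgap29a (0.85). All of these are rho values over 21 libraries that share depth and cell makeup. The lists are not stable: leaving out 1 library kept 3 to 5 of the 5 genes for nr4a3 and 1 to 5 for nr4a1 over all libraries, and leaving out untrained_WT replicates 3 and 7 kept 1 for nr4a3 and 0 for nr4a1. The lists of nr4a1, nr4a2b and nr4a3 by both measures were checked under other scalings and with libraries left out. In 57 of these checks the number of genes kept stayed within 1.5 times of 5, and in 87 it did not.

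**Figure D5:**
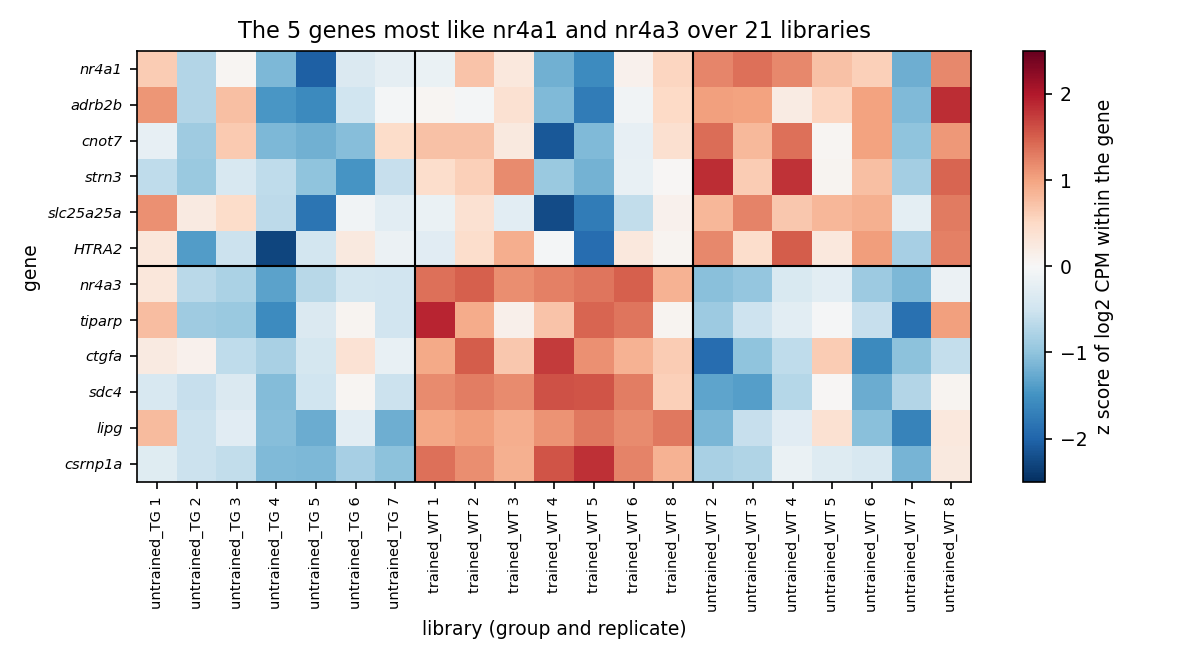
Level of nr4a1 and nr4a3, each with its 5 most alike genes, in 21 libraries, as z scores of log2 CPM within each gene, with libraries grouped as untrained_TG, trained_WT and untrained_WT. The row of nr4a3 is high across the 7 trained_WT libraries, the level for which it was selected. The row of nr4a1 is low in untrained_TG replicate 5 (nr4a1 at 28.6 CPM), trained_WT replicates 4 and 5 (51.5 and 39.7 CPM) and untrained_WT replicate 7 (51.1 CPM).

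Markers of other cell types were set beside the members. Summed endothelial markers were at 238 to 430 CPM in untrained_TG, 144 to 412 CPM in trained_WT and 99.9 to 234 CPM in untrained_WT, with 9 of 10 higher in untrained_TG and 2 of 10 higher in trained_WT than in untrained_WT, against 18.3% and 2.25% of all genes. With library totals the 9 became 2. The 2 in trained_WT became 0 with library totals, without untrained_WT replicates 3 and 7, without untrained_WT replicate 3 alone and without trained_WT replicate 4 or 5, and 1 without trained_WT replicate 1, 2 or 8, without untrained_WT replicate 2, 4, 6 or 8 or with the untrained_TG libraries left out of the fit. The rank correlation of the endothelial sum with nr4a2b, group means subtracted, was 0.64, and that of the nerve markers with nr4a2b was 0.54. For nr4a3 the red blood cell markers had the strongest such correlation, 0.52, and their summed level was 379 to 1010 CPM in untrained_TG, 309 to 1058 CPM in trained_WT and 294 to 2126 CPM in untrained_WT, with hbae1 at 0 in every group. Leukocyte markers were at 159 to 253 CPM in untrained_TG, 71.7 to 185 CPM in trained_WT and 103 to 288 CPM in untrained_WT, and nerve markers at 264 to 393 CPM in untrained_TG, 206 to 427 CPM in trained_WT and 212 to 297 CPM in untrained_WT. Germ cell markers were at 1.18 to 7.24 CPM in untrained_TG, where nanos3 was at 0, 1.19 to 19.1 CPM in trained_WT and 4.14 to 111.7 CPM in untrained_WT, and 7 of 8 tested were lower in untrained_TG than in untrained_WT, against 25.1% of all genes. The 7 became 1 without untrained_WT replicates 3 and 7, and 2 with limma-voom or with the replicate block. The part of these cell types in the NR4A levels was not tested.

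Genes next to nr4a3 did not share its trained level. In the RefSeq gene order of GRCz12tu, a build other than that of the counts, sec61b and stx17 flank nr4a3 and neither overlaps it. Their log2 fold changes in trained_WT versus untrained_WT were 0.07 ± 0.14 (edgeR adjusted p = 0.846) and -0.19 ± 0.19 (edgeR adjusted p = 0.634).

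The authors' deposited table gives nr4a1 a log2 fold change of -1.16 with an SE of 0.367 (adjusted p = 0.00604) in untrained_TG versus untrained_WT. In the authors' deposited table nr4a2b is at 0.20 (adjusted p = 0.608) and nr4a3 at 0.44 (adjusted p = 0.470) in that comparison. For trained_WT versus untrained_WT the authors' deposited table has log2 fold changes of -0.86 for nr4a1, 0.43 for nr4a2b and 4.61 for nr4a3, with the same signs as those given here.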

How the data were processed

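The members, gene lists and tests were chosen with earlier results of these data known. The authors deposited raw read counts per Ensembl gene, and tables of log2 fold changes with standard errors and of p-values with adjusted p-values. Alignment and counting tools named in the submitters' processing notes are STAR 2.4.0i and HTSeq 0.9.1, beside DESeq2 and the build GRCz10. The annotation release and the counting strand were not given in the sources used here. Overlapping or antisense reads may not be separable. The labels describe 8 samples per group and 7 per group were analysed here. The 42 columns of normalised values per sample were not used. Counts over genes cover all 31953 gene IDs, named or not, and the TMM-scaled library sizes cover the 18947 genes that passed the filter. Of all reads in the count table, those without a feature made up 8.39% to 10.0% in untrained_TG, 5.44% to 6.13% in trained_WT and 5.02% to 8.09% in untrained_WT, and ambiguous reads 0.88% to 2.00% over all.

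Counts of all 21 libraries were fitted together in edgeR 4.0.16 (R 4.3.3) with TMM scaling, filterByExpr and group as the only term. The quasi-likelihood test covered 18947 genes with Benjamini-Hochberg adjustment, and an adjusted p under 0.05 was a call. The SE is the log2 fold change divided by the square root of F. Rank correlations used log2 CPM with a prior count of 2. The scripts were tested on simulated data.

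All members are named. From each list the 3 called genes with the smallest p per comparison are named, with 5 genes most alike to each member by each measure, except that for nr4a2b the list over all libraries is not reported here. Other list genes named (such as egr1, ppargc1a, rxraa and the remaining called immediate early genes) were chosen after their values were seen. The nuclear receptor list was drawn by symbol pattern and also took in nr2c2ap, which is not a receptor. Alternatives were DESeq2 1.42.0, limma-voom 3.58.1 with sample weights, RLE scaling, library totals, no filter, only the libraries compared, a replicate block, robust dispersion, leaving out untrained_WT replicates 3 and 7, and leaving out each library.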

Additional observations from a re-analysis of the deposited data

Results flagged for a closer look

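The nr4a3 level of untrained_TG replicate 1 stood apart from the other transgenic libraries. It was at 19.1 CPM, the nearest other library was at 4.83 CPM, and this gap was 0.785 of the group's range, above Dixon's 95% critical value for 7 samples. Of 15 such group checks of the members, their sum and the ratio of nr4a3 to nr4a1, 1 passed that value, and chance passes about 1 in 20 groups. For the log2 ratio of nr4a3 to nr4a1 in untrained_TG, the gap at the high end was 0.0245 of the range. Levels were checked as CPM only, and the flag depends on that scale. In log2 CPM of nr4a3, untrained_TG replicate 1 was at 4.26, the next transgenic library at 2.28 and the lowest at -0.075. On the log2 scale this gap, as a part of the range, is below the critical value. Untrained_TG replicate 1 also had the highest nr4a1 of its group, 187.1 CPM. The 5 genes most alike to nr4a3 were picked over libraries that include this one, so their levels here are no independent support. Among these 5, lipg was at a log2 CPM of 6.19 in this library, where the other transgenic libraries were at 0.92 to 3.48. The other 4 were nearer to their group: tiparp was at 4.42 and csrnp1a at 4.18, with up to 4.05 and 3.86 in the other transgenic libraries, and ctgfa (4.64) and sdc4 (3.91) were below replicate 6 (4.75 and 4.25). Its nr4a2b level, 4.16 CPM, was within the range of the group.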

How the results depend on the processing

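Leaving out each library in turn gave log2 fold changes for untrained_TG versus untrained_WT of -1.49 to -1.08 for nr4a1 (adjusted p 0.00342 to 0.0343 by edgeR, called each time), 0.02 to 0.28 for nr4a2b and -0.28 to 0.76 for nr4a3. The last reversed without untrained_TG replicate 1, at -0.28. For trained_WT versus untrained_WT they ran from -1.07 to -0.75 for nr4a1, 0.34 to 0.56 for nr4a2b and 4.91 to 5.35 for nr4a3, and for untrained_TG versus trained_WT from -0.58 to -0.18, -0.42 to -0.18 and -5.34 to -4.39 for the same genes. Other settings gave -1.63 to -1.23 for nr4a1 in untrained_TG versus untrained_WT. With library totals nr4a2b in that comparison reversed to -0.32; the median of all genes was then -0.64 in place of -0.13, and relative to it nr4a2b was at 0.33 with library totals and 0.31 with TMM, and nr4a1 at -0.99 and -1.13. That shift is part of the scaling's own construction. With library totals the share of called genes that were higher was 15.9% in place of 42.1% in untrained_TG versus untrained_WT, 17.8% in place of 76.2% in trained_WT versus untrained_WT and 30.6% in place of 46.1% in untrained_TG versus trained_WT.

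Genes called in trained_WT versus untrained_WT numbered 559, and 1303 with DESeq2, 978 with limma-voom, 1128 with library totals, 369 with the replicate block, 262 without untrained_WT replicates 3 and 7, and 287 to 623 leaving out each library, with 287 without trained_WT replicate 5 and 335 without untrained_WT replicate 3; the cause was not tested. Counts for the other comparisons stayed within 1.5 times of 8232 and 7887. Replicate numbers showed no clear pairing of the samples. Correlations of same-numbered libraries ran from -0.258 to 0.0916, -0.364 to 0.397 and -0.250 to 0.146 in the 3 comparisons. Of these libraries 1, 0 and 0 correlated best with their own number. With 6 shared numbers in each comparison, this check cannot settle whether a batch went with the number. The replicate block changed no call on a tested member. Of the list genes named as called in trained_WT, thraa and dusp2 lost the call in 11 of 30 alternatives each, atf3 and sik1 in 10 each, prkar1aa in 8, hdac9b in 7, pde4ca and dusp1 in 3 each, pparaa, sik2b and gadd45bb in 2 each, and maff in 1. Of those named as called in untrained_TG versus untrained_WT, rxraa lost it in 11 and fosl1b in 1. For nr4a2a no alternative gave a value. At this depth the library with the least nr4a3 held 62 counts. For nr4a2a a count of 0 in a library allows an expected level of up to 3 counts, for counting error only.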
